A study of Mus musculus with 16 samples.

Results

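The ADAM genes encode membrane proteins with a metalloprotease domain and a disintegrin domain. They were taken as every gene whose symbol in the files was Adam followed by a number and at most 1 letter, with symbols listed more than once left out. The rule found 32 of the 22293 genes, and none of the 32 symbols was repeated. By their known sites of expression, 19 were testis members, 12 were somatic members and 1, Adam7, was an epididymal member.

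ADAM proteins are made with an inhibitory prodomain, which proprotein convertases remove. Members with a working catalytic site shed the outer parts of growth factors, receptors and adhesion proteins from the cell surface, ADAM10 and ADAM17 being the main ones. Several testis members lack a working catalytic site and form pairs with each other in the endoplasmic reticulum of spermatogenic cells. ADAM3 in particular is needed by mouse sperm to pass into the oviduct and bind the egg coat.

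RNA was sequenced in 16 libraries of male mice of strain C57;ICR, either without miR-202 (KO) or wildtype (WT). Isolated spermatocytes came from adults (3 KO and 3 WT libraries), cultured spermatogonial stem cells from pups 6 to 7 days after birth (3 KO and 3 WT), and isolated spermatogonia from pups of the same age (2 KO and 2 WT). The cultures were kept with GDNF and bFGF. The spermatocytes differed from the other cells in both age and stage, and the cultures from the spermatogonia by culture, so these cannot be told apart. The design text of the series calls the replicates biological and does not say whether each came from another animal. P-values therefore measure the spread between these libraries. How the KO allele was made is not described in the labels.

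Levels are FPKM, fragments per kilobase of transcript scaled by the fragments mapped in the library, as the authors deposited them. Differences are on the scale of log2(FPKM + 1), which understates the change of genes with low FPKM. A gene was called when its adjusted p in a limma fit of all genes was under 0.05. It was tested in a cell type if at least 2 of that type's libraries reached 1 FPKM. Of the 32 members, 24 passed this filter in spermatocytes, 9 in cultured stem cells and 9 in spermatogonia.

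The host locus of the deleted microRNA, Mir202, had a value of 0 in every library, so it could not check the genotype labels. The labels of the cells were checked against markers. Summed FPKM of 10 spermatocyte markers was 6488 to 7159 in the spermatocyte libraries and 98.9 to 194 in the other libraries. Summed FPKM of 10 spermatogonial markers was 702 to 1207 in cultures and spermatogonia, against 39.9 to 63.0 in spermatocytes. RNA of other cells was also present. Sertoli markers summed to 1144 to 1759 FPKM in spermatogonia, 14 spermatid markers to 1717 to 5362 FPKM in spermatocytes, and 8 fibroblast markers to 123 to 710 FPKM in cultures and spermatogonia. In bulk RNA, fewer cells of a type and less RNA per cell cannot be told apart.

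Promoter sequences of single-exon testis members held fewer CG dinucleotides than those of somatic members. RefSeq promoters of GRCm38.p6, 250 bases before to 50 after the start of transcription, were at hand for 16 of the 32 members. All 9 testis members among them had a single coding exon, and the multi-exon testis members Adam2, Adam3, Adam5, Adam18 and Adam32 had no entry. Shown are 2 testis and 2 somatic promoters. Adam1b is the testis member with the highest level among those with a promoter entry, and Adam25 (one of the testases) is among the low testis members. Adam10 and Adam17 encode the main shedding enzymes. They lie at chr5:121503386-121503685 (minus strand), chr8:40751958-40752257 (plus strand), chr9:70678732-70679031 (plus strand) and chr12:21373583-21373882 (minus strand). Each is written 5′ to 3′ along its gene, and capitals mark CG dinucleotides.
Adam1b: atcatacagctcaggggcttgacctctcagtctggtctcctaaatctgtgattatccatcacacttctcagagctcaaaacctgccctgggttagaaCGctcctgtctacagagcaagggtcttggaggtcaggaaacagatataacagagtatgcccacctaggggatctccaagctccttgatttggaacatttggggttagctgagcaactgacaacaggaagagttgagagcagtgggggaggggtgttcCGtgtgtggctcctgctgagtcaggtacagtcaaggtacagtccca
Adam25: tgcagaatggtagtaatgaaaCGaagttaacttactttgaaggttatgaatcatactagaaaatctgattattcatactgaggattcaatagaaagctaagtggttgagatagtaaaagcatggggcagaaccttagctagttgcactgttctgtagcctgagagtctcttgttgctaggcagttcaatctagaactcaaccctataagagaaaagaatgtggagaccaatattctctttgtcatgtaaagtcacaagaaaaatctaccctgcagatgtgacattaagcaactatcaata
Adam10: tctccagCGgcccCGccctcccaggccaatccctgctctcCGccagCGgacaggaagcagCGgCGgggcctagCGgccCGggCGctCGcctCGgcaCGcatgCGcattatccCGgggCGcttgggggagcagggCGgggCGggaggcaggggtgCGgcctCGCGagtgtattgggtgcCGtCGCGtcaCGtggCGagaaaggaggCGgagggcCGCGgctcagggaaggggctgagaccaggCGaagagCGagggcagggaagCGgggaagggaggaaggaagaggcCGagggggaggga
Adam17: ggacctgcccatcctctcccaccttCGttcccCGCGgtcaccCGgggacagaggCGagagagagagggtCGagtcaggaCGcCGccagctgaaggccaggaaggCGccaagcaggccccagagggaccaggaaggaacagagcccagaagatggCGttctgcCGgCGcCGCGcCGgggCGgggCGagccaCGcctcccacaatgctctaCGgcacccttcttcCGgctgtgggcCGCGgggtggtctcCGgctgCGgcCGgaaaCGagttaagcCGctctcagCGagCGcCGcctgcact
The Adam1b and Adam25 promoters hold 2 and 1 CG dinucleotides, and those of Adam10 and Adam17 hold 32 and 30. All 9 testis promoters held 0 to 4 CG dinucleotides (median 1), and the 9 promoters of 7 somatic members held 5 to 32 (median 19). Over all 32851 mouse promoters of the table the median was 7, and 38.0% held 4 or fewer.

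The GC content was 35.3% to 51.0% in the 9 testis promoters and 49.3% to 73.3% in the 9 somatic promoters, against a median of 52.7% over all promoters. The letters CAACNG, on either strand, occurred in the promoters of 5 of 9 testis members and 2 of 7 somatic members, and in 35.02% of all promoters. TATAAA, on either strand, occurred in 3 of 9 testis members (Adam29, Adam6a and Adam6b), in none of the 7 somatic members and in 13.6% of all promoters. These matches were not tested and do not show a binding site.

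The testis members were at their highest in spermatocytes and low elsewhere. Their summed level was 1544 ± 102 FPKM in KO spermatocytes and 1688 ± 56.6 FPKM in WT spermatocytes (SD, n = 3 each). It was 2.33 ± 0.227 FPKM in KO cultures and 2.498 ± 0.446 FPKM in WT cultures (n = 3 each), and 5.15 ± 2.04 FPKM in KO spermatogonia and 4.14 ± 0.961 FPKM in WT spermatogonia (n = 2 each). The somatic members had the opposite order. Their sums were 15.8 ± 1.08 FPKM in KO and 14.4 ± 1.18 FPKM in WT spermatocytes, 83.8 ± 5.72 FPKM in KO and 92.2 ± 12 FPKM in WT cultures, and 56.8 ± 1.81 FPKM in KO and 69.6 ± 2.16 FPKM in WT spermatogonia.

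As a log2 ratio of the summed levels, testis over somatic members stood at 6.62 ± 0.18 in KO and 6.88 ± 0.07 in WT spermatocytes (SD, n = 3 each). The ratio was -5.17 ± 0.24 in KO and -5.21 ± 0.09 in WT cultures (n = 3 each), and -3.52 ± 0.63 in KO and -4.09 ± 0.29 in WT spermatogonia (n = 2 each). Spermatocyte libraries did not overlap with those of the other cells, as the plot of summed levels shows.

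**Figure D1:**
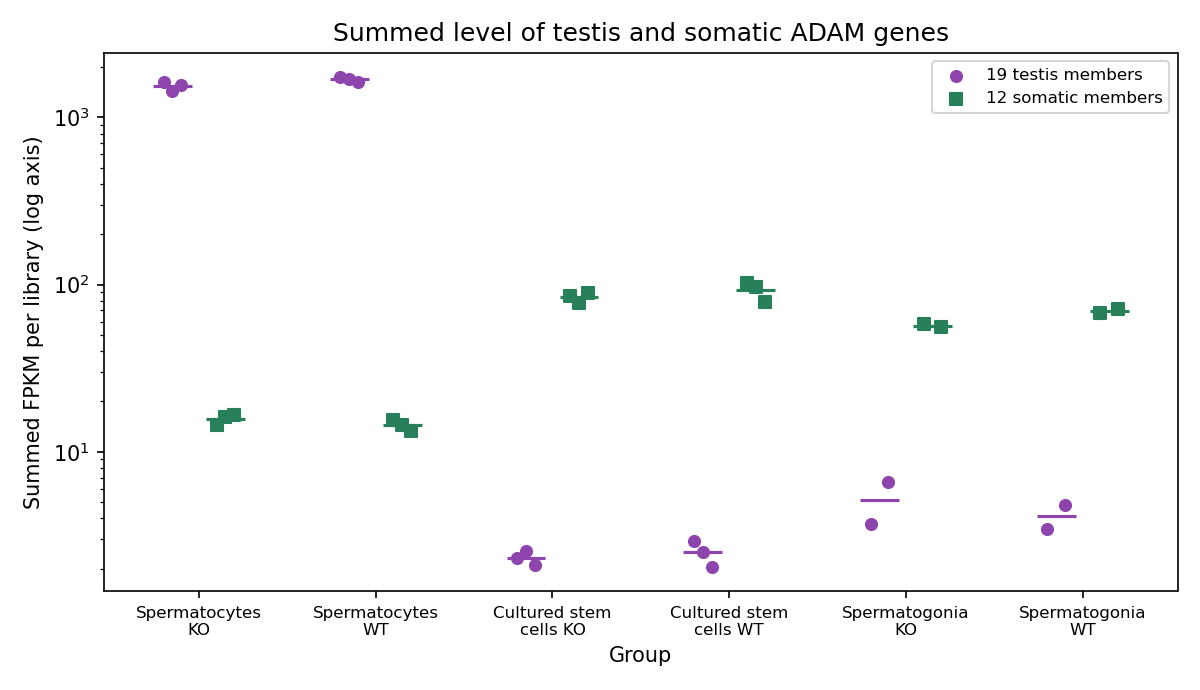
Summed FPKM of the 19 testis members and the 12 somatic members in each library, on a log axis, with KO left of WT in each cell type. Points are libraries and bars are group means. Testis members sum to 1435 to 1733 FPKM in spermatocytes and to 2.05 to 6.59 FPKM in all other libraries.

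Among the testis members, 4 genes held most of the level. Adam5 was at 451, 385 and 448 FPKM in KO spermatocytes and at 485, 481 and 479 FPKM in WT spermatocytes. Adam3, which encodes cyritestin, was at 384, 333 and 332 FPKM in KO and at 404, 403 and 340 FPKM in WT spermatocytes. These genes were the highest in every spermatocyte library, with Adam5 above Adam3 throughout.

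Adam2 encodes fertilin beta, the partner of ADAM1A and ADAM1B. It was at 286, 263 and 270 FPKM in KO spermatocytes and at 296, 275 and 304 FPKM in WT spermatocytes. Adam32 was at 286, 236 and 267 FPKM in KO and at 286, 285 and 253 FPKM in WT spermatocytes, so the ranges of Adam2 and Adam32 overlapped. Adam5, Adam3, Adam2 and Adam32 made up 28.5%, 22.6%, 17.3% and 16.3% of the summed testis level in WT spermatocytes.

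Further down came Adam1b, which encodes the form of fertilin alpha found with ADAM2 on sperm, and Adam18. Adam1b averaged 76.9 ± 6.44 FPKM in KO and 82.8 ± 5.57 FPKM in WT spermatocytes, and Adam18 averaged 76 ± 9.05 FPKM in KO and 79 ± 1.84 FPKM in WT spermatocytes (SD, n = 3 each). The levels of these neighbours overlapped. Adam30 followed at 37.3 ± 2.28 FPKM in KO and 41.8 ± 0.563 FPKM in WT spermatocytes. Adam1a, whose protein joins ADAM2 within the endoplasmic reticulum and is needed in mice for ADAM3 to reach the sperm surface, averaged 13.1 ± 3.14 FPKM in KO and 16.5 ± 2.99 FPKM in WT spermatocytes.

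The other 11 testis members were low, with means of 1.30 to 6.56 FPKM in WT spermatocytes. Adam24 was the highest of them, followed by Adam26a (4.87 FPKM), Adam6a (4.77), Adam39 (4.05) and Adam25 (3.99). Adam24, Adam25, Adam26a and Adam34 are testases, whose proteins carry the catalytic motif. Below came Adam6b (3.22 FPKM), Adam29 (3.16), Adam4 (2.82), Adam21 (2.37), Adam34 (1.36) and Adam26b. Adam6a and Adam6b encode ADAM6, found on mouse sperm in a complex with ADAM2 and ADAM3. Adam26a and Adam6a overlapped over their 3 WT libraries, as did Adam39 and Adam25, Adam6b and Adam29, and Adam34 and Adam26b.

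**Figure D2:**
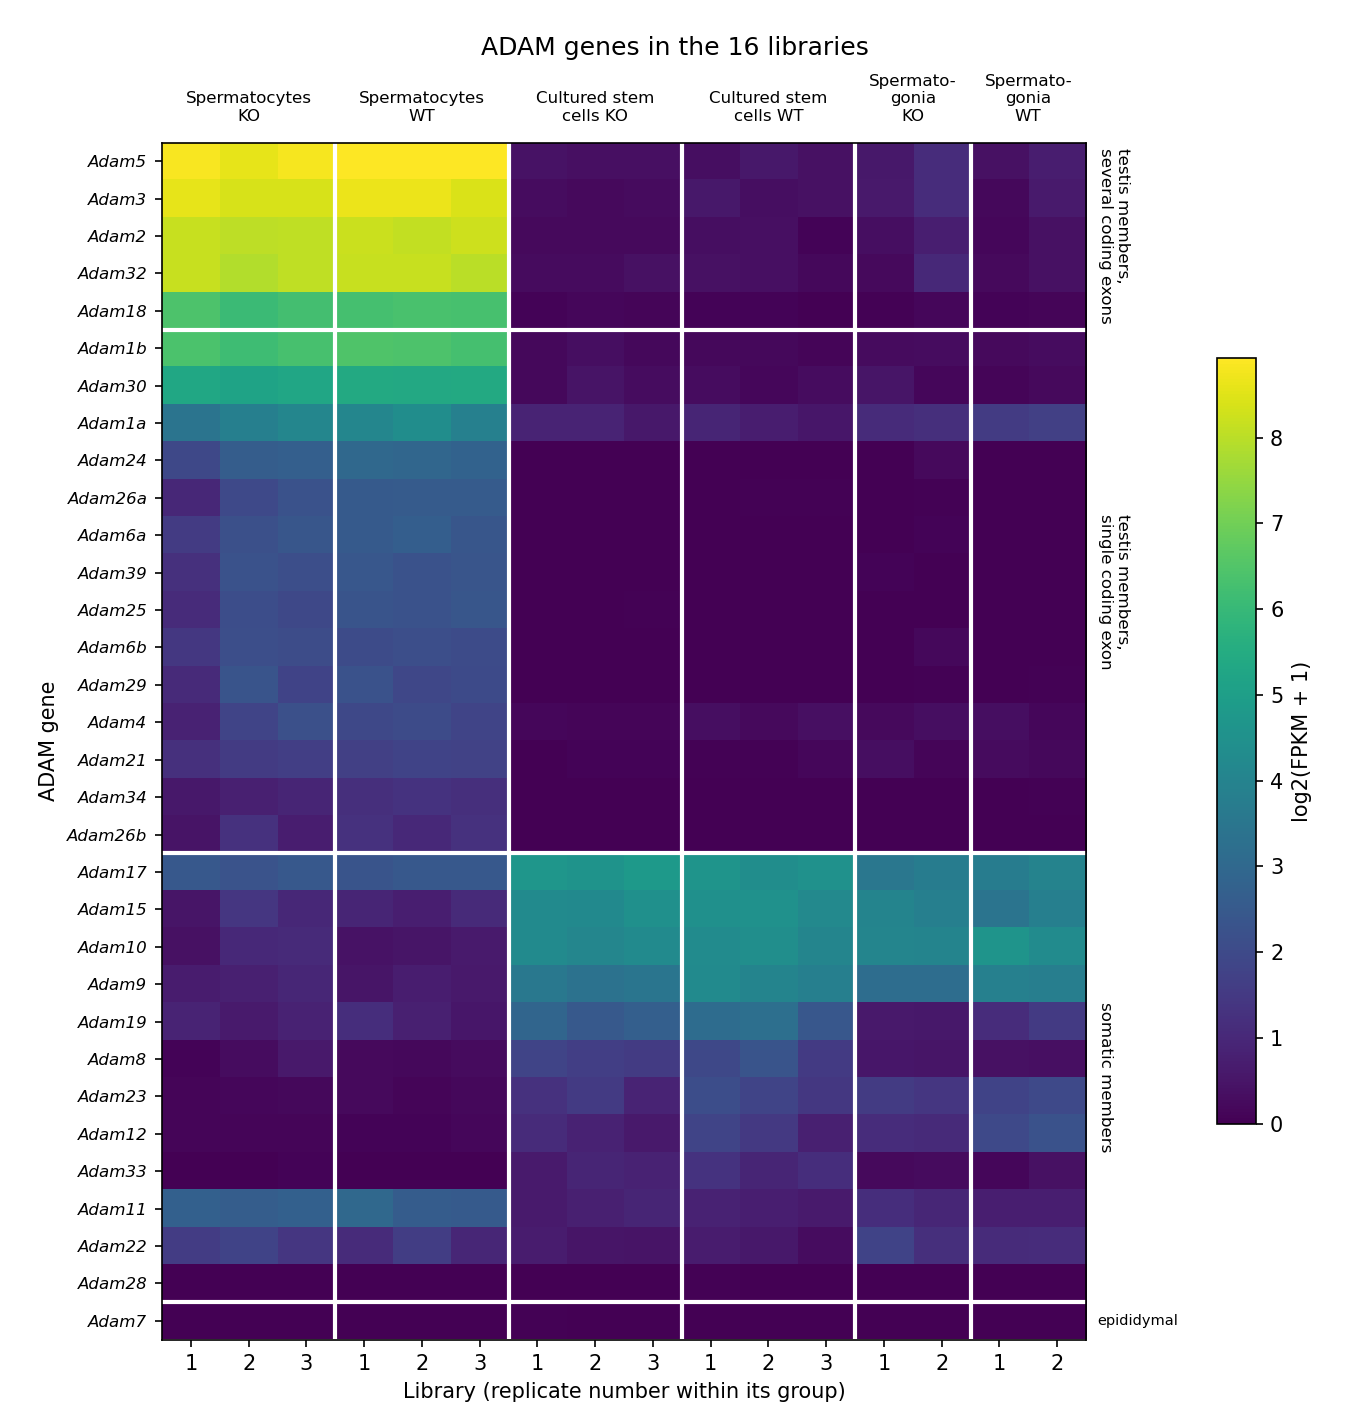
Level of each of the 32 ADAM genes (rows) in each of the 16 libraries (columns), as log2(FPKM + 1), with KO left of WT for each cell type. The 19 testis members have their highest values in the spermatocyte columns, where Adam5 is the highest in every library, and most somatic members are higher in cultures and spermatogonia.

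Gene structure differed between the high and the low testis members. In the GENCODE annotation, to which all 32 symbols matched, 5 testis members (Adam2, Adam3, Adam5, Adam18 and Adam32) had 19 to 22 coding exons. Their means in WT spermatocytes were 79.0 to 481 FPKM (median 292). The other 14 testis members had a single coding exon, and their means were 1.30 to 82.8 FPKM (median 4.02), Adam1b being above Adam18. The 12 somatic members all had 16 to 30 coding exons. Members share sequence and position, so this is given without a test.

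**Figure D3:**
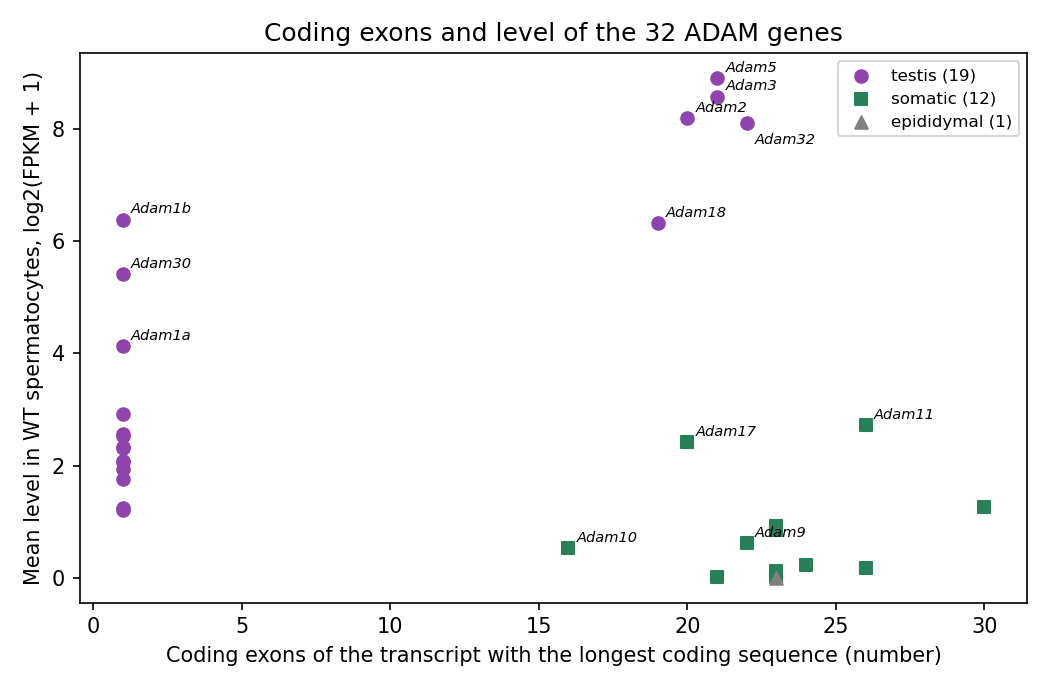
Number of coding exons of each ADAM gene against its mean level in WT spermatocytes (n = 3 libraries), as log2(FPKM + 1). All 14 genes with 1 coding exon are testis members, and the 5 testis members with 19 to 22 coding exons lie above all somatic members.

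Near-identical copies limit what the low values say of single genes. For 9 of the 14 single-exon members, stretches of 50 bases of the transcript also occurred in another member. The share of such stretches was 30.9% in Adam1a and 32.4% in Adam1b, 28.2% in Adam25 and 28.1% in Adam39, and 29.5% in Adam6a and 29.6% in Adam6b. It was 32.8% in Adam26a, 32.3% in Adam26b and 10.7% in Adam34. How such reads were divided between copies in the authors' counting is not stated in the labels, so the level of each of these 9 genes is uncertain. None of the 5 multi-exon testis members and none of the somatic members shared such a stretch with another member. Genes outside the members were not searched for such stretches.

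The testis members lie in a few groups along the genome. Chromosome 8 holds 11 of them, chromosome 12 holds 4, chromosome 5 holds Adam1a and Adam1b side by side, and chromosomes 3 and 14 hold 1 each. On chromosome 8, Adam18, Adam3, Adam5 and Adam32 follow each other and end at Adam9, a somatic member. Adam32 averaged 274 ± 18.5 FPKM in WT spermatocytes and 0.244 ± 0.107 FPKM in WT spermatogonia (SD, n = 3 and 2). Its neighbour Adam9 was at 0.529 ± 0.113 FPKM in the same spermatocytes and at 13.4 ± 0.428 FPKM in the same spermatogonia. These neighbours thus had opposite orders between the cells.

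Spermatocyte libraries were compared with those of spermatogonia and cultures, each of which also held RNA of other cells. In WT, 28 members were tested between spermatocytes and spermatogonia, of which 20 were higher and 6 lower in spermatocytes. Over all genes 33.8% were higher and 55.2% lower, with a median log2 difference of -0.73. Between WT spermatocytes and WT cultures 30 members were tested, 21 being higher and 9 lower, against 33.2% and 56.9% of all genes. Most members reached the filter in 1 of the cell types only, mostly through the cells where they were higher, and the counts are therefore a description. Adam19, which passed in spermatogonia and not in spermatocytes, was not called, with a log2 difference of -0.49 in WT (adjusted p = 0.066) and 0.21 in KO (adjusted p = 0.423). In KO cells the same 26 members were called between spermatocytes and spermatogonia, against 34.3% higher and 53.9% lower of all genes. The same 30 were called between spermatocytes and cultures, against 33.3% and 55.9% of all genes, and all had the same direction as in WT.

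Only 5 members passed the filter in both spermatocytes and spermatogonia. Adam1a was at 16, 19.8 and 13.9 FPKM in WT spermatocytes and at 1.92 and 2.20 FPKM in WT spermatogonia, with a log2 difference of 2.51 (SE 0.20, adjusted p = 7.84e-09). Adam10, Adam15 and Adam17 were lower in WT spermatocytes by log2 differences of -3.93, -2.74 and -1.46 (adjusted p = 2.21e-11, 9.00e-09 and 3.35e-08). Adam22 was not called (log2 difference 0.12, SE 0.21, adjusted p = 0.589).

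Against WT spermatogonia, the log2 difference was 8.37 for Adam5 (SE 0.15), 8.16 for Adam3 (SE 0.17), 7.91 for Adam2 (SE 0.14) and 7.79 for Adam32 (SE 0.18). At the other end of the testis members stood Adam26b (1.20, SE 0.17). These 5 passed the filter through spermatocytes alone, so their differences are given without a test. Median-ratio scaling of the libraries put the median log2 difference of all genes between WT spermatocytes and WT spermatogonia at -0.02 in place of -0.73. It divided the calls over all genes into 6111 higher and 6169 lower, in place of 4671 higher and 7619 lower. Between WT spermatocytes and WT cultures the split was 6181 higher and 6182 lower, in place of 4603 and 7890. All 26 and all 30 calls of members kept their direction and stayed called under it.

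In the cultures and spermatogonia some testis members were still detected. In spermatogonia 4 to 9 of the 19 were listed at 0 in a library, and in cultures 8 to 10. Adam1a was the highest of them in spermatogonia, at 1.13 and 1.31 FPKM in KO and 1.92 and 2.20 FPKM in WT spermatogonia, where KO lay below WT (log2 difference -0.46, SE 0.22, adjusted p = 0.25). In cultures it was at 0.834, 0.847 and 0.484 FPKM (KO) and 0.908, 0.659 and 0.466 FPKM (WT), with overlap. Its log2 difference between WT cultures and WT spermatogonia was -0.87 (SE 0.20), and it passed the filter there through spermatogonia alone.

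KO spermatogonia replicate 2 stood apart. Its testis members summed to 6.59 FPKM, against 3.71 FPKM in the other KO library and 3.47 and 4.82 FPKM in the WT libraries. Adam3 was at 1.18 FPKM there, against 0.531 FPKM in the other KO library and 0.151 and 0.549 FPKM in WT. The 14 spermatid markers summed to 102 FPKM in that library and to 8.09 to 10.8 FPKM in the other 3 spermatogonia libraries. The part of these markers in the testis members' level was not tested.

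Testis members in KO and WT spermatocytes were compared next. All 19 passed the filter. None was called with limma, against 0.00974% of all genes called lower and 0% called higher, and 8 members had an unadjusted p under 0.05. All 19 log2 differences were below 0, with a median of -0.30, while 52.3% of all genes tested were below 0 and their median was -0.01. In 9 of the 19 (Adam5, Adam21, Adam24, Adam25, Adam26a, Adam30, Adam34, Adam39 and Adam6a) every KO library was below every WT library, which held for 5.84% of all genes. In none was every KO library above, which held for 2.12%. The 14 single-exon members had a median of -0.35 and the 5 multi-exon members a median of -0.10.

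Adam26a was at 0.990, 2.88 and 3.75 FPKM in KO spermatocytes, against 4.81, 4.93 and 4.88 FPKM in WT spermatocytes. All KO libraries lay below all WT libraries, and replicate 1 lay furthest. The log2 difference was -0.82 (SE 0.22, adjusted p = 0.491), the lowest of the 19. Adam34 was at 0.495, 0.742 and 0.907 FPKM in KO and at 1.32, 1.45 and 1.32 FPKM in WT spermatocytes, again without overlap, and passed the filter through WT libraries alone (log2 difference -0.47, SE 0.09, adjusted p = 0.25). Over the alternatives its adjusted p ranged over 0.0151 to 0.9998, and it was called in 3 of them, with no filter on low values (0.0344), with quantile normalization (0.0151) and with median-ratio scaling (0.0445).

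Adam25 was at 1.14, 3.32 and 2.83 FPKM in KO and at 4.0, 3.70 and 4.26 FPKM in WT spermatocytes (log2 difference -0.60, SE 0.18, adjusted p = 0.714). Adam24, whose protein has been linked in mice to the block to extra sperm, was at 2.78, 5.27 and 5.53 FPKM in KO and at 7.06, 6.66 and 5.95 FPKM in WT spermatocytes (log2 difference -0.49, SE 0.16, adjusted p = 0.786). Adam6a was at 1.91, 3.48 and 4.22 FPKM in KO and at 4.78, 5.28 and 4.25 FPKM in WT spermatocytes (log2 difference -0.49, SE 0.16, adjusted p = 0.75). In each of these the KO libraries lay below the WT libraries, and KO replicate 1 was the lowest.

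Adam39, which shares sequence with Adam25, was at 1.33, 3.73 and 3.43 FPKM in KO and at 4.33, 3.77 and 4.06 FPKM in WT spermatocytes (log2 difference -0.47, adjusted p = 0.999). Adam21 was at 1.34, 1.96 and 2.18 FPKM in KO and at 2.24, 2.5 and 2.38 FPKM in WT spermatocytes (-0.27, adjusted p = 0.999). Adam29 was at 1.07, 3.97 and 2.47 FPKM in KO and at 3.72, 2.71 and 3.05 FPKM in WT spermatocytes (-0.33, adjusted p = 0.999). Adam39 and Adam21 had no overlap between KO and WT. For Adam29 the groups overlapped, with both the highest and the lowest library in KO. Adam4 and Adam6b also overlapped, with log2 differences of -0.30 and -0.19.

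KO spermatocyte replicate 1 stood apart among the single-exon members. As a percentage of the WT mean, they had a median of 38.2% in KO replicate 1, 83.3% in replicate 2 and 86.6% in replicate 3. The multi-exon members had medians of 100.4%, 86.2% and 93.1% in the same libraries. KO replicate 1 was the lowest of the 6 libraries for 12 of the 14 single-exon members and for none of the 5 multi-exon members. Without that library 16 of the 19 members were below 0 and the median log2 difference was -0.16, against 45.5% of all genes below 0 and a median of 0.02. Without KO replicate 2, 17 of 19 were below 0, and the lone call there was Adam26b (adjusted p = 0.0266). Its remaining KO libraries were at 0.402 and 0.635 FPKM, against 1.42, 1.06 and 1.41 FPKM in WT. Only WT libraries thus reached 1 FPKM, and its level is uncertain because of shared sequence. Without KO replicate 3 all 19 were below 0.

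As a list, the 14 spermatid markers also had their lowest median in KO replicate 1, but not every marker did so. Their median was 57.5% of the WT mean in KO replicate 1, 78.9% in replicate 2 and 115% in replicate 3. KO replicate 1 was the lowest library for 10 of the 14. KO replicate 2 was the lowest for the other 4 (Prm1, Prm2, Tnp1 and Tnp2). These were at 65.7% to 79.4% in KO replicate 1 and 39.3% to 54.3% in KO replicate 2, against 68.8% to 76.8% in WT replicate 1. All 14 spermatid markers had log2 differences below 0 over all libraries, with a median of -0.29. None was called and 4 had an unadjusted p under 0.05. Spermatocyte markers had medians of 98.3%, 101.5% and 99.3% in the 3 KO libraries. Summed spermatid markers were 1717 to 5362 FPKM in KO and 2533 to 4484 FPKM in WT spermatocytes, and none was listed at 0. Their part in the levels of the single-exon members was not tested.

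The spermatocyte libraries also split by Leydig cell RNA, though the labels give no batch. Insl3, a Leydig cell hormone chosen after its values were seen, was at 81.8 and 98.0 FPKM in KO replicates 2 and 3 and at 45.0 FPKM in WT replicate 3. It was at 10.9 FPKM in KO replicate 1 and at 8.79 and 12.4 FPKM in WT replicates 1 and 2. Within the first 3 libraries 15 of 19 testis members were below 0 with a median log2 difference of -0.14, and within the other 3 libraries 16 of 19 with a median of -0.67. With this split as a term in the fit, 0 members were called and 11 had an unadjusted p under 0.05. Adam26a then had an adjusted p of 0.0506 and Adam34 of 0.0558.

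**Figure D4:**
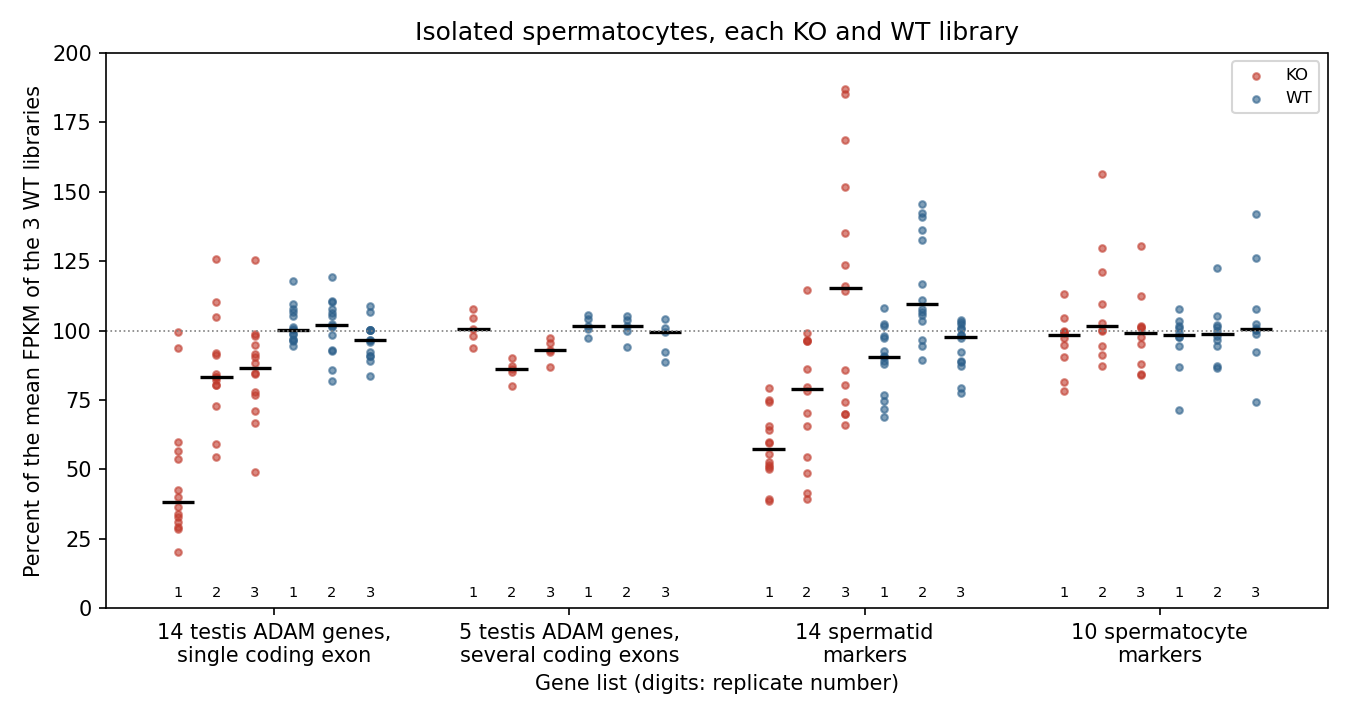
FPKM of single genes (points) in each spermatocyte library as a percentage of the mean of the 3 WT libraries, with KO replicates left of WT replicates for 4 gene lists and black bars for medians. The single-exon ADAM genes have a median of 38.2% in KO replicate 1, where the multi-exon ADAM genes are at 100.4% and the spermatid markers at 57.5%.

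Proteins that fold, process or accompany the sperm ADAMs were examined as a list of 19 genes. Of 18 tested, 14 were higher and 1 lower in WT spermatocytes than in WT spermatogonia, with a median log2 difference of 2.54, against 33.8% higher, 55.2% lower and a median of -0.73 over all genes. Pcsk4, Pdilt, Cmtm2b, Rnase10, Prss37 and Prss55 passed the filter through spermatocytes alone, so the counts and the median are a description. Clgn, the calmegin chaperone needed to form the ADAM1 and ADAM2 pair in mice, was at 402 ± 34.9 FPKM in WT spermatocytes and 1.88 ± 0.407 FPKM in WT spermatogonia (SD, n = 3 and 2), with a log2 difference of 7.13 (adjusted p = 1.06e-13). Cmtm2a, needed in mice together with Cmtm2b for ADAM3 on sperm, was at 748 ± 45.9 FPKM in WT spermatocytes and 0.906 ± 0.574 FPKM in WT spermatogonia (log2 difference 8.65). Pcsk4, the convertase of sperm, was at 59.6 ± 3.98 FPKM in WT spermatocytes and 0.591 ± 0.0428 FPKM in WT spermatogonia (log2 difference 5.25).

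Pdilt, a chaperone of ADAM3, was at 14.6 ± 1.58 FPKM in WT spermatocytes and 0.0155 ± 0.0219 FPKM in WT spermatogonia (log2 difference 3.94). Tex101, a germ cell surface protein needed in mice for ADAM3 on sperm, was already present outside spermatocytes. It was at 170 ± 106 FPKM in WT spermatocytes, 90.1 ± 26.1 FPKM in WT cultures (n = 3 each) and 24.5 ± 5.89 FPKM in WT spermatogonia (n = 2). Tpst2, a tyrosine sulfotransferase, was lower in WT spermatocytes, at 3.41 ± 0.987 FPKM against 10.5 ± 0.481 FPKM in WT spermatogonia (log2 difference -1.41, adjusted p = 1.14e-05).

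None of the 18 genes of this list tested in spermatocytes was called between KO and WT with limma, 1 had an unadjusted p under 0.05, and the median log2 difference was -0.04. In spermatogonia 12 were tested, 1 being higher and 1 lower in KO, against 0.917% and 5.76% of all genes. Ly6k, which joins TEX101, was at 3.82 and 2.62 FPKM in KO and at 0.984 and 1.19 FPKM in WT spermatogonia, higher in KO by a log2 difference of 1.0 (SE 0.25, adjusted p = 0.0271). Of its WT libraries only replicate 2 reached 1 FPKM, so Ly6k met the filter with the help of the KO libraries. Hspa5, the general chaperone of the endoplasmic reticulum, was at 147 and 119 FPKM in KO and at 291 and 237 FPKM in WT spermatogonia, a log2 difference of -0.98 (SE 0.18, adjusted p = 0.00446). The other 10 were not called.

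Among the somatic members, Adam17 and Adam10 encode the main shedding enzymes. Adam17 was at 4.45, 3.93 and 4.54 FPKM in KO and at 4.01, 4.48 and 4.49 FPKM in WT spermatocytes. It was at 24.5, 23.1 and 27.7 FPKM in KO cultures and at 23.5, 19.9 and 21.8 FPKM in WT cultures, and at 10.7 and 12.5 FPKM in KO and 12.4 and 14.9 FPKM in WT spermatogonia. KO and WT overlapped in each cell type, while the 3 cell types did not overlap with each other, cultures being highest and spermatocytes lowest.

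Adam10 was at 0.332, 1.05 and 1.09 FPKM in KO and at 0.345, 0.420 and 0.548 FPKM in WT spermatocytes. It averaged 17.5 ± 1.41 FPKM in KO and 18.2 ± 2.40 FPKM in WT cultures (SD, n = 3 each), and 15.5 ± 0.533 FPKM in KO and 21 ± 3.43 FPKM in WT spermatogonia (n = 2 each). Spermatocytes lay below all other libraries, and cultures overlapped with spermatogonia. The log2 difference between WT spermatocytes and WT cultures was -3.73 for Adam10 (SE 0.17, adjusted p = 8.41e-12) and -2.09 for Adam17 (SE 0.12, adjusted p = 9.80e-11). The difference between these 2 values was not tested.

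Adam15, a widely expressed member with a catalytic site, had a like order. It averaged 1.02 ± 0.606 FPKM in KO and 0.882 ± 0.212 FPKM in WT spermatocytes, 19.1 ± 2.01 FPKM in KO and 20.1 ± 2.42 FPKM in WT cultures (SD, n = 3 each), and 14.5 ± 1.32 FPKM in KO and 11.6 ± 2.66 FPKM in WT spermatogonia (n = 2 each). Adam9, a member of the meltrin group that is widely expressed, differed between WT spermatocytes and WT cultures by a log2 difference of -3.44 (SE 0.13), a difference given without a test because it passed the filter through cultures alone.

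Adam11 was a somatic member with the order of the testis members. It encodes a member without catalytic activity, known from the nervous system. It was at 5.62, 5.22 and 5.74 FPKM in KO and at 7.05, 5.10 and 4.70 FPKM in WT spermatocytes. In WT cultures it was at 0.823, 0.674 and 0.547 FPKM and in WT spermatogonia at 0.700 and 0.680 FPKM, with no overlap with spermatocytes. The log2 difference of WT spermatocytes was 1.95 against WT spermatogonia (SE 0.15) and 1.96 against WT cultures (SE 0.14), and it passed the filter through spermatocytes alone. Adam11 and Adam17 made up 39.0% and 30.1% of the summed somatic level in WT spermatocytes.

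Adam22 and Adam23, also without catalytic activity, bind LGI proteins at synapses. Adam22 was at 2.02, 2.5 and 1.69 FPKM in KO and at 1.15, 2.08 and 0.954 FPKM in WT spermatocytes. Its log2 difference between WT spermatocytes and WT cultures was 0.71 (SE 0.19), and it passed the filter there through spermatocytes alone. Adam23 took the opposite order, with 0.116 ± 0.0279 FPKM in KO and 0.131 ± 0.0457 FPKM in WT spermatocytes, against 2.53 ± 0.801 FPKM in WT cultures (SD, n = 3 each).

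The remaining somatic members were low. Adam28, known from lymphocytes and epididymis, was listed at 0 in 14 of the 16 libraries and was at 0.0231 and 0.0274 FPKM in the other two, and Adam7 was listed at 0 in 15. Adam33 reached 1 FPKM in 2 libraries, both of WT cultures. Adam8, a leukocyte member, was at 2.57, 2.14 and 1.96 FPKM in KO and at 2.80, 3.93 and 1.89 FPKM in WT cultures, and at 0.469 and 0.429 FPKM in KO and 0.323 and 0.295 FPKM in WT spermatogonia. Cultures and spermatogonia did not overlap for Adam8, and in spermatocytes it was at or below 0.534 FPKM.

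The cultures were set against the isolated spermatogonia, which were of the same age. In WT, 11 members were tested, 5 being higher and 3 lower in cultures, against 30.5% and 22.6% of all genes. Adam19, a protease of the meltrin group, was at 8.0, 8.59 and 4.31 FPKM in WT cultures and at 1.20 and 1.85 FPKM in WT spermatogonia, a log2 difference of 1.62 (SE 0.24, adjusted p = 5.71e-05). The log2 difference was 0.75 for Adam15 (adjusted p = 0.00938) and 0.64 for Adam17 (0.000793). It was 1.53 for Adam8 and 0.86 for Adam33, which passed the filter through cultures alone and are given without a test. The counts are a description, since 4 of the 8 calls (Adam8, Adam33, Adam1a and Adam22) were of members that passed through the cells where they were higher.

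Lower in WT cultures were Adam1a (above), Adam12, another meltrin (log2 difference -0.73, SE 0.22, adjusted p = 0.013), and Adam22 (-0.59, SE 0.21). Adam22 passed the filter through spermatogonia alone, so its difference is given without a test. In KO cells 4 members were higher (Adam8, Adam17, Adam19 and Adam33) and Adam22 was lower, against 32.2% and 22.4% of all genes. The call of Adam12 in WT was lost without WT spermatogonia replicate 2 (adjusted p = 0.116). That of Adam15 was lost without WT spermatogonia replicate 1 (0.137). Adam22 was no longer called without either WT spermatogonia library or without WT culture replicate 3. Markers of leukocytes and macrophages summed to 150 to 177 FPKM in WT cultures and 3.25 to 4.68 FPKM in WT spermatogonia. Most of the sum in WT cultures was Lyz2, at 161, 156 and 140 FPKM. Cd68 was at 7.73, 5.21 and 3.54 FPKM there, and Ptprc at 0.42, 0.19 and 0.12 FPKM. The part of leukocytes and macrophages in the level of Adam8 was not tested.

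Adam9 was lower in KO in both spermatogonia and cultures. In spermatogonia it was at 8.09 and 8.21 FPKM in KO, against 13.7 and 13.1 FPKM in WT. In cultures it was at 11, 9.39 and 9.96 FPKM in KO, against 18.5, 15.3 and 13.3 FPKM in WT. KO and WT did not overlap in either. The log2 difference was -0.65 in spermatogonia (SE 0.16, adjusted p = 0.0235) and -0.58 in cultures (SE 0.13, adjusted p = 0.0133). In spermatocytes, where it did not pass the filter, Adam9 was at 0.600, 0.729 and 0.948 FPKM in KO and at 0.415, 0.640 and 0.532 FPKM in WT.

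Adam12 was the other member called. It was at 1.18 and 1.11 FPKM in KO spermatogonia, against 2.89 and 3.77 FPKM in WT spermatogonia, without overlap (log2 difference -1.01, SE 0.24, adjusted p = 0.0215). In cultures it was at 1.15, 0.808 and 0.541 FPKM in KO, against 2.58, 1.82 and 0.743 FPKM in WT, where the groups overlapped (log2 difference -0.52, SE 0.20, adjusted p = 0.183).

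Adam9 and Adam12 were the 2 of 9 members called lower in KO spermatogonia, where 5.76% of all genes were called lower and 0.917% higher. That split was 691 lower and 110 higher, and 647 lower and 430 higher with quantile normalization. Adam9 was the 1 of 9 called lower in KO cultures, where 5.84% of all genes were called lower and 0.324% higher. Both calls in spermatogonia were lost when any 1 spermatogonia library was left out. Adam12 then had adjusted p of 0.102 and 0.122 without KO replicate 1 or 2, and of 0.059 and 0.14 without WT replicate 1 or 2. For Adam9 these were 0.119, 0.111, 0.17 and 0.0858. In cultures Adam9 lost its call without KO replicate 2 (adjusted p = 0.0659), KO replicate 3 (0.0513) or WT replicate 1 (0.0637).

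The other somatic members tested were not called between KO and WT. In spermatogonia Adam19 was at 0.535 and 0.477 FPKM in KO and at 1.20 and 1.85 FPKM in WT, with no overlap (log2 difference -0.74, SE 0.26, adjusted p = 0.12). Adam19 passed the filter there through WT libraries alone. In 6 of the 9 tested members every KO library lay below every WT library, and in 2 (Adam15 and Adam22) above, which held for 34.9% and 21.2% of all genes. In cultures Adam23 was at 1.40, 1.85 and 0.851 FPKM in KO and at 3.30, 2.58 and 1.70 FPKM in WT, with overlap (log2 difference -0.57, SE 0.17, adjusted p = 0.0614). Adam33, which passed the filter through WT libraries alone, had a log2 difference of -0.33 there (adjusted p = 0.12). Adam8 had one of -0.23 (0.538) and Adam17 of 0.20 (0.423). Of the 9 tested in cultures, every KO library lay below every WT library for Adam9 and above for none, which held for 11.7% and 6.61% of all genes.

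**Figure D5:**
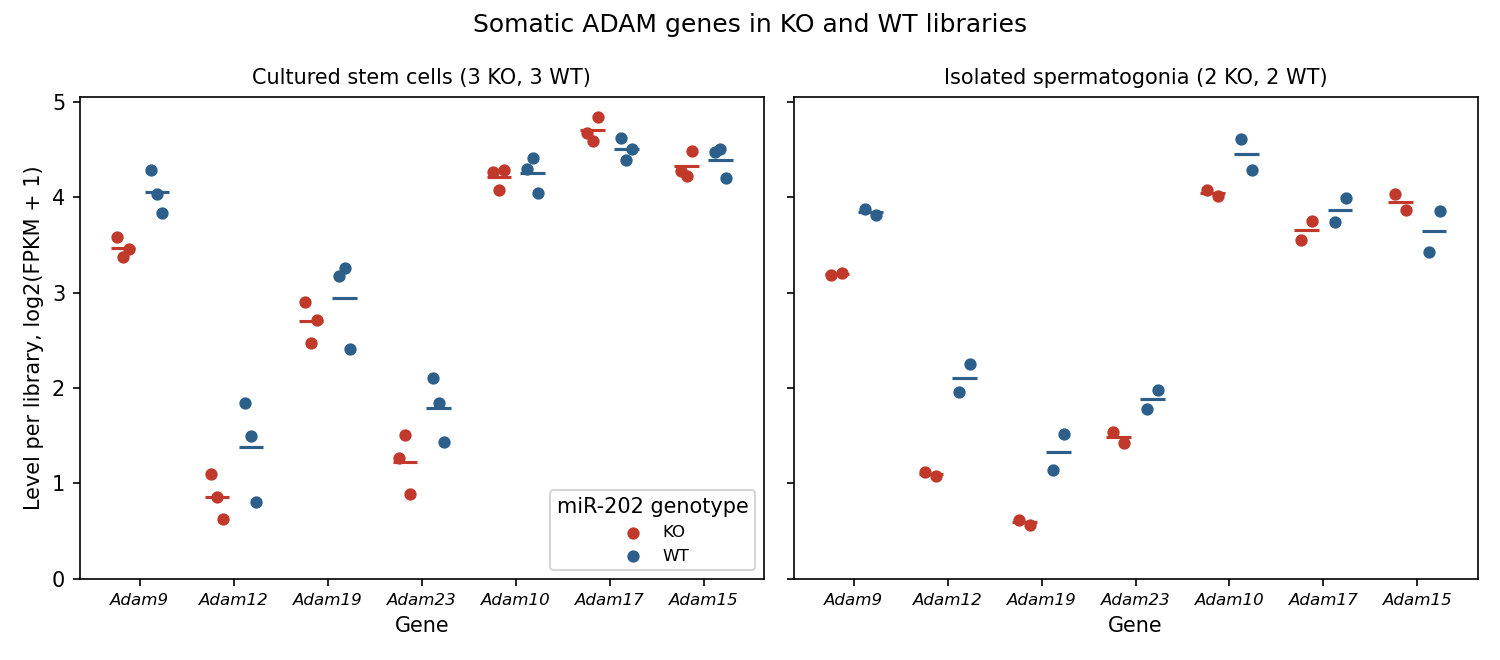
Level of 7 somatic members as log2(FPKM + 1) in each library of the cultures and spermatogonia, KO left of WT. Points are libraries and bars are group means. For Adam9 the KO libraries lie below all WT libraries in both cell types, and for Adam12 they do so in spermatogonia and not in cultures.

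RNA of fibroblasts and of smooth muscle went the same way as Adam9 and Adam12. Of 8 fibroblast markers 6 were lower in KO spermatogonia, against 5.76% of all genes, with a median log2 difference of -1.69 over the list, and their summed level was 188 and 204 FPKM in KO against 552 and 710 FPKM in WT. In cultures 6 of 8 were lower, against 5.84% of all genes, with a median of -1.35. Their sums there were 123 to 219 FPKM in KO against 334 to 568 FPKM in WT. Of 7 markers of myoid and smooth muscle cells 5 were lower in KO spermatogonia, against 5.76% of all genes. The sums were 48.9 and 50.9 FPKM in KO against 191 and 253 FPKM in WT. In cultures 5 of these 7 were tested and 3 were lower, against 5.84% of all genes. The sums were 17.2 to 48.9 FPKM in KO against 84.5 to 148 FPKM in WT. None of these markers was listed at 0 in these libraries, and the part of such cells in the levels of Adam9 and Adam12 was not tested. Spermatogonial markers had a median log2 difference of 0.27 in spermatogonia and 0.03 in cultures. With limma none of the 10 was called in either, and 2 and 0 had an unadjusted p under 0.05.

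The difference in the effect of genotype between cell types was tested for each member. For Adam9 the effect in spermatogonia minus that in spermatocytes was -0.85 on the log2 scale (SE 0.21, adjusted p = 0.0471), and the effect in cultures minus that in spermatocytes was -0.78 (SE 0.18, adjusted p = 0.0437). Adam9 was the only member called in each, where 2.14% and 2.02% of all genes were called in either direction. Both rest on a spermatocyte level under 1 FPKM, where Adam9 did not pass the filter. The calls were lost in 12 of 16 and 15 of 18 alternatives. The first call was lost without any 1 library other than KO spermatocyte replicate 1, with adjusted p of 0.0759 to 0.178. The second was lost without any 1 library other than KO spermatocyte replicate 1, KO culture replicate 1 or WT culture replicate 3, with adjusted p of 0.0697 to 0.127. The effect in spermatogonia minus that in cultures was -0.07 (SE 0.21, adjusted p = 0.931), and no member was called with limma, against 1.81% of all genes, and 1 of 11 had an unadjusted p under 0.05.

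Proteins that steer ADAM10 and ADAM17 went in both directions between spermatocytes and spermatogonia. Of 9 listed, 8 were tested, 2 being higher and 6 lower in WT spermatocytes than in WT spermatogonia. Over all genes 33.8% were higher and 55.2% lower. Rhbdf1, Rhbdf2, Tspan14, Tspan15, Tspan17 and the convertase Furin passed the filter through spermatogonia alone, so the counts are a description. Rhbdf2, an iRhom that carries ADAM17 to the surface, was at 0.127 ± 0.0537 FPKM in WT spermatocytes and 23.3 ± 0.0939 FPKM in WT spermatogonia (SD, n = 3 and 2), a log2 difference of -4.43. Rhbdf1, the other iRhom, was at 0.0812 ± 0.0422 FPKM in WT spermatocytes and 17 ± 1.41 FPKM in WT spermatogonia (log2 difference -4.06). Frmd8, which holds the complex at the surface, was higher, at 41.3 ± 1.53 FPKM in WT spermatocytes and 17 ± 2.28 FPKM in WT spermatogonia (log2 difference 1.24, adjusted p = 5.82e-08).

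The tetraspanins that guide ADAM10 diverged. Tspan15 was at 0.0926 ± 0.0912 FPKM in WT spermatocytes, 2.42 ± 0.247 FPKM in WT cultures (n = 3 each) and 25.2 ± 3.77 FPKM in WT spermatogonia (n = 2). Tspan33 was higher in WT spermatocytes, at 12.2 ± 1.58 FPKM against 7.48 ± 1.41 FPKM in WT spermatogonia (log2 difference 0.64, adjusted p = 0.00106). Furin, the convertase that removes many ADAM prodomains, was at 0.241 ± 0.137 FPKM in WT spermatocytes and 26.8 ± 2.12 FPKM in WT spermatogonia (log2 difference -4.49). Pcsk7, another convertase, was higher in WT spermatocytes (log2 difference 0.74, adjusted p = 0.00271). None of the regulators was called between KO and WT with limma. Unadjusted p was under 0.05 for 2 of 8 in spermatogonia, 0 of 3 in spermatocytes and 1 of 8 in cultures. Of 4 convertases tested in cultures, Pcsk5 was lower in KO (log2 difference -0.91). It passed the filter through WT libraries alone, so this difference is given without a test. Over all genes 5.84% were lower there.

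The metalloprotease inhibitors Timp1, Timp2 and Timp3 were lower in KO cultures. Of 5 listed, 4 were tested and these 3 were called, against 5.84% of all genes called lower. Timp1 was at 77.8, 36.9 and 49 FPKM in KO cultures, against 92.5, 189 and 126 FPKM in WT cultures (log2 difference -1.31, SE 0.26, adjusted p = 0.00533). Timp2 had a log2 difference of -1.71 (adjusted p = 0.00637) and Timp3, which inhibits ADAM17, of -1.49 (adjusted p = 0.0153). KO and WT cultures did not overlap for any of the 3. Reck, another inhibitor, was at 5.48, 6.68 and 5.01 FPKM in KO and at 7.27, 5.78 and 4.97 FPKM in WT cultures, with overlap, and was not called (log2 difference -0.05, adjusted p = 0.908). In spermatogonia none of the 4 tested was called with limma, 3 had an unadjusted p under 0.05, and the median log2 difference was -0.996. These genes are also made by stromal cells, whose markers were lower in the same libraries, and the part of those cells was not tested.

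Substrates that ADAM proteins shed were listed as 26 genes. In cultures 18 were tested and 5 were lower in KO, none higher, against 5.84% and 0.324% of all genes. They were Csf1, a macrophage growth factor (log2 difference -1.58, adjusted p = 0.000371), Cd44, an adhesion receptor (-1.71, 0.000351), and 3 ligands of the EGF receptor. These were Ereg (-1.52, 0.00105), Hbegf (-0.89, 0.00139) and Areg (-0.79). Hbegf was at 14.3, 12.8 and 10.8 FPKM in KO cultures, against 21.3, 24.8 and 26.2 FPKM in WT cultures, without overlap. Areg passed the filter through WT libraries alone, so its difference is given without a test. The 8 fibroblast markers summed to 123 to 219 FPKM in the same KO cultures, against 334 to 568 FPKM in the WT cultures, and their part in these levels was not tested. In spermatogonia 18 were tested and 2 were lower in KO, against 5.76% of all genes, namely Csf1 (log2 difference -1.22, adjusted p = 0.00926) and the chemokine Cx3cl1 (-1.16, adjusted p = 0.00314). In WT spermatocytes against WT spermatogonia 16 of 18 were lower, against 55.2% of all genes, and Cdh2 and Tgfa were higher by log2 differences of 2.43 and 1.06. Of the 16, only App and Hbegf passed the filter in spermatocytes. The others passed through spermatogonia alone, so the count is a description.

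Integrins that bind ADAM disintegrin domains and their surface partners were lower in WT spermatocytes than in WT spermatogonia for 8 of 8 genes. The median log2 difference was -3.59, against 55.2% lower and a median of -0.73 over all genes. Only Itgb1 and Cd81 passed the filter in spermatocytes. The others passed through spermatogonia alone, so the count and the median are a description. Itgb1, a shared beta chain, was at 1.08 ± 0.308 FPKM in WT spermatocytes and 97.7 ± 1.6 FPKM in WT spermatogonia (SD, n = 3 and 2). In KO spermatogonia Itga4 (log2 difference -0.89) and Itga9 (-0.67, adjusted p = 0.0316) were lower, against 5.76% of all genes, and the other 6 were not called. Itga4 passed the filter through WT libraries alone, so its difference is given without a test. Of the 4 LGI ligands 2 were tested in cultures, and Lgi4 was lower in KO cultures, against 5.84% of all genes. It was at 0.412, 0.581 and 0.411 FPKM in KO, against 2.79, 1.38 and 1.27 FPKM in WT cultures (log2 difference -0.90, SE 0.16). Lgi4 passed the filter through WT libraries alone, so this difference is given without a test.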

How the data were processed

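The authors deposited 1 FPKM value for each gene symbol in each library. TopHat2 2.0.6, Cufflinks 2.0.2 and the build mm9 stand in the submitters' processing notes, without order or settings. Per the labels' protocols, RNA was extracted with TRIzol, prepared with a directional NEBNext Ultra kit and sequenced on a HiSeq-X10. Reads were not counted again, depth is therefore unknown, and no counting interval is given. FPKM summed to 262109 to 395564 per library. Of 23021 rows, the 728 rows of 259 repeated symbols were left out.

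Values were analysed as log2(FPKM + 1). One limma model (version 3.58.1 in R 4.3.3, trend = TRUE, two-sided) with a mean for each of 6 groups was fitted to 14480 genes with 10 residual degrees of freedom. Benjamini-Hochberg adjustment ran over all genes tested in a comparison (FPKM of at least 1 in at least 2 libraries of one of its cell types), with a threshold of 0.05. The members and lists were chosen with earlier results of these data known. Every member may be named, and of other lists the genes called, or up to 4 with the smallest p. The spermatocyte split by Insl3, the crossed pairing and the counts without single spermatocyte libraries were added after seeing the data.

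Gene structure and neighbours came from GENCODE and RefSeq annotations on GRCm38 and were matched by symbol, since the files use mm9. Promoters are RefSeq's on GRCm38.p6. The script of the fit was first run on simulated data with known changes. Tables and plots used Python 3.11.15, pandas 2.3.3 and matplotlib 3.10.9.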

Additional observations from a re-analysis of the deposited data

Results flagged for a closer look

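The effect of genotype on Adam9 was called as different between cell types, though Adam9 did not pass the filter in spermatocytes. It entered these comparisons through spermatogonia or cultures alone, where it was higher. In spermatogonia minus spermatocytes the effect was -0.85 on the log2(FPKM + 1) scale (adjusted p = 0.0471, limma). Adam9 was at 8.15 ± 0.0869 FPKM in KO and 13.4 ± 0.428 FPKM in WT spermatogonia (SD, n = 2 each), and at 0.759 ± 0.176 FPKM in KO and 0.529 ± 0.113 FPKM in WT spermatocytes (n = 3 each). In cultures minus spermatocytes the difference was -0.78 (adjusted p = 0.0437), with 10.1 ± 0.831 FPKM in KO and 15.7 ± 2.62 FPKM in WT cultures (n = 3 each). The 2 differences share the spermatocyte libraries. Over their alternatives the adjusted p of the first ranged over 0.0329 to 0.178 and that of the second over 0.0165 to 0.173. The first call was lost in 12 of 16 alternatives and the second in 15 of 18.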

How the results depend on the processing

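The 26 calls of members between spermatocytes and spermatogonia and the 30 between spermatocytes and cultures, in WT and in KO, held under every alternative run: a pseudocount of 0.1, no filter, quantile normalization, median-ratio scaling, only the groups compared, a replicate block and each library left out. Most of these members passed the filter only through the cells where they were higher, so the counts that held are a description. Of the 8 calls between WT cultures and WT spermatogonia 5 held under all. No call of a member changed direction. Quantile normalization put the log2 ratio of testis to somatic members at 5.65 in KO spermatocytes, 5.79 in WT spermatocytes, -5.46 in WT cultures and -4.54 in WT spermatogonia.

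Counts between KO and WT were small and moved, and the cause was not tested. In spermatogonia the 2 members called became 0 with a pseudocount of 0.1, 1 with median-ratio scaling, and 0 to 0 with a library left out. In spermatocytes the 0 called became 1 with no filter, quantile normalization or median-ratio scaling, and 0 to 1 with a library left out. In cultures the 1 called became 0 with a pseudocount of 0.1 or only the groups compared, and 0 to 3 with a library left out. The genotype effect in spermatogonia minus that in spermatocytes (1 member called) gave 0 with a pseudocount of 0.1 or median-ratio scaling, 2 with no filter, quantile normalization or only the groups compared, and 0 to 2 with a library left out. In cultures minus spermatocytes (1 called) it gave 0 with a pseudocount of 0.1, median-ratio scaling or only the groups compared, and 0 to 2 with a library left out. With no filter or quantile normalization it gave 1, which was Adam34 in the other direction (adjusted p = 0.0333 and 0.0277), while Adam9 was not called (0.0544 and 0.0569).

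Replicate numbers did not pair the libraries. The deviations of same-numbered libraries correlated at 0.252, -0.321 and -0.171 in spermatocytes, at -0.002, -0.065 and 0.224 in cultures, and at -0.123 in spermatogonia. With a replicate block 2 members were called in spermatogonia, 0 in spermatocytes, 2 in cultures and 0 in either difference of effects. The crossed pairing in spermatogonia, added after seeing the data, also gave 2. Among all genes called between KO and WT spermatogonia, 110 were higher and 691 lower, against 430 and 647 with quantile normalization. With 2 or 3 libraries a group and unknown depth, members under 1 FPKM in a cell type were not tested there, except with no filter.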
